A study of Mus musculus with 4 samples.

Results

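The genes described here make retinoic acid, remove its precursor, or receive the signal of retinoic acid and of vitamin D. They are 9 genes chosen by name: the retinaldehyde dehydrogenases Aldh1a1, Aldh1a2 and Aldh1a3, the retinol dehydrogenase Rdh10, the retinaldehyde reductase Dhrs3, the receptors Rara, Rarb and Rxra, and the vitamin D receptor Vdr. Matched by RefSeq accession, all 9 were found among the 20637 named genes of the array, with 12 probes among 55597. Dendritic cells were sorted by flow cytometry from the colonic lamina propria, the connective tissue under the gut epithelium, of C57BL/6J mice. The groups were WT and CD300a deficient mice under SPF (specific pathogen-free) housing, labelled female, and WT and CD300a deficient mice under GF (germ-free) housing, labelled male; the labels give no age and no description of the deleted allele. Each group is 1 array, and the series text gives 5 mice per condition as the source of the cells. A difference between 2 arrays therefore has no replicate error and comes without a p-value.

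Retinol, which is vitamin A, is oxidised to retinaldehyde by retinol dehydrogenases such as RDH10, and retinaldehyde is oxidised to retinoic acid by the ALDH1A enzymes, while DHRS3 returns retinaldehyde to retinol. Retinoic acid binds receptors of the RAR family, which act on DNA as pairs with an RXR; the vitamin D receptor also pairs with an RXR. In the gut, dendritic cells that express Aldh1a2 give T and B cells the retinoic acid that directs them to the intestine and favours regulatory T cells, and intestinal epithelial cells and stromal cells make retinoic acid as well.

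Levels are log2 of the scanner's processed signal relative to the 75th percentile of the same array, so a level of 0 is the signal at that percentile and a difference of 1 is 2-fold. The errors given beside signals are the scanner software's own estimates for the spot, and cover neither amplification nor differences between mice. Probes printed 5 or more times on an array had a median SD of 0.06 to 0.10 between their spots at levels above -1, of 0.15 to 0.18 at levels from -3 to -1 and of 0.35 to 0.47 below -3. Both SPF arrays lay on slide 1 and were read in scan 1, and both GF arrays lay on slide 2 and were read in scan 2, so effects of housing, slide, scan and labelled sex cannot be told apart, whereas each genotype comparison lies within 1 slide. Of the 20637 named genes, 13797 to 15055 were well above background per array. Cd300a itself read 7.82 on the WT SPF, 7.87 on the KO SPF, 7.54 on the WT GF and 7.99 on the KO GF array by its only probe, and where that probe lies relative to the deleted part is unknown here, so the arrays are called KO-labelled. Xist was well above background at 3.57 on the KO-labelled GF array, which is labelled male, and the Y-linked Eif2s3y at -2.61 on the KO-labelled SPF array, which is labelled female; neither was well above background on the WT array of the same label. Other readings followed the labelled sex: Eif2s3y, Ddx3y and Uty stood above background on both GF arrays, and the last 2 on neither SPF array. Sex-linked readings thus differed within both genotype pairs, by Eif2s3y under SPF and by Xist under GF housing. The sex of the source mice may therefore differ within these pairs, and its part in the genotype differences was not tested. Of 11 matched dendritic cell markers, 10 or 11 were well above background on every array, with Xcr1 not well above it on both GF arrays, and all 11 matched macrophage and monocyte markers were well above it on all 4.

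The stretches upstream of 4 members are shown because these genes carry the results: Rarb as the textbook case of a retinoic acid response element, Aldh1a2 and Aldh1a1 as the enzymes to be compared, and Vdr as the member that was higher on both KO-labelled arrays. They are the 250 bases before the RefSeq start on GRCm38.p6, for Rarb at chr14:16575477-16575726 and for Vdr at chr15:97908297-97908546, both on the minus strand, for Aldh1a2 at chr9:71215539-71215788 and for the second listed start of Aldh1a1 at chr19:20601718-20601967, both on the plus strand. Capitals mark motif matches.
Rarb: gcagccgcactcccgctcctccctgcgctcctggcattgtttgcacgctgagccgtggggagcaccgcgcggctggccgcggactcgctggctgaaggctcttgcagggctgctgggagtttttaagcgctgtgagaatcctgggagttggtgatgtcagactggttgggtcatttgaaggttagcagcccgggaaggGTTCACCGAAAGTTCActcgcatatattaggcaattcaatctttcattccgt
Aldh1a2: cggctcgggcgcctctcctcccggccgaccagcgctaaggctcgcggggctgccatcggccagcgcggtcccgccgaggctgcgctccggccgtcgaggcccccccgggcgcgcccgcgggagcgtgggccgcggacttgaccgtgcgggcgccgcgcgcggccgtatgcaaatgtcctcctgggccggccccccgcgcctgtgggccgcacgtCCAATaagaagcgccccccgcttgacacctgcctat
Aldh1a1: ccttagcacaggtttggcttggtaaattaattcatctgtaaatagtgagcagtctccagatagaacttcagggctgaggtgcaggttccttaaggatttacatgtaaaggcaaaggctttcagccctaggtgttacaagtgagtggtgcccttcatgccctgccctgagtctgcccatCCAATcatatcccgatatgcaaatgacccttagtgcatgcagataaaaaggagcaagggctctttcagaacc
Vdr: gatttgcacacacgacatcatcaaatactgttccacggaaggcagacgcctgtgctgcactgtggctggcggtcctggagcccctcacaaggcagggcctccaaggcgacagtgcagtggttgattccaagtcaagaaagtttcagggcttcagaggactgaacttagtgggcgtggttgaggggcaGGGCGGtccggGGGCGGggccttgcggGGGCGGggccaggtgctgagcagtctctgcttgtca
In Rarb the capitals are a direct repeat with the 5-base spacing that RAR and RXR pairs are known to bind, from 52 to 37 bases before the start. It was searched on both strands as GGTCA or GTTCA, then NNNNNN, then GGTCA or GTTCA, and 0.210% of all 32851 windows of this length hold such a repeat. With spacings of 1, 2, 3 and 4 bases the shares were 0.317%, 0.292%, 0.143% and 0.161%, and among the 14 windows of the 7 members with an entry (Aldh1a3 and Rdh10 had none) the Rarb match was the only direct repeat of any spacing. In Aldh1a2 and Aldh1a1 the capitals are CCAAT, present in 33.8% of windows, and in Vdr they are 3 copies of GGGCGG, present in 32.7%; TATAAA, present in 12.4%, was in no window of a member. No marked motif overlaps another in these 4 stretches. The Aldh1a2 stretch holds 40 CpG dinucleotides and the Aldh1a1 stretch 1, where the median of all windows is 6. These are matches of letters and say nothing on binding in these cells.

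Aldh1a1, which encodes retinaldehyde dehydrogenase 1, had the widest range of the 9 genes over the 4 arrays. Its single probe (NM_013467) gave a processed signal of 104 ± 10.6 (WT SPF), 40.2 ± 4.71 (KO-labelled SPF), 3106 ± 311 (WT GF) and 6385 ± 638 (KO-labelled GF), which are levels of -0.73, -2.02, 3.97 and 4.89. Both GF arrays were thus far above both SPF arrays, and all 4 were well above background. Between housings the difference in level was 4.70 in WT cells, or 26.1-fold, and 6.91 in KO-labelled cells, or 120-fold. It was the 185th highest of 15656 genes tested in WT cells and the 48th highest of 15572 in KO-labelled cells. The genotype difference went in opposite directions, with -1.28 under SPF housing (2.43-fold lower on the KO-labelled array) and 0.92 under GF housing (1.90-fold higher). Aldh1a7, a close relative of Aldh1a1 whose transcript is similar enough that a probe may bind both, was named after its values were seen. It was not well above background on either SPF array and read -1.79 on the WT GF and -0.42 on the KO-labelled GF array, so the share of each gene in the other's signal is uncertain.

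**Figure D1:**
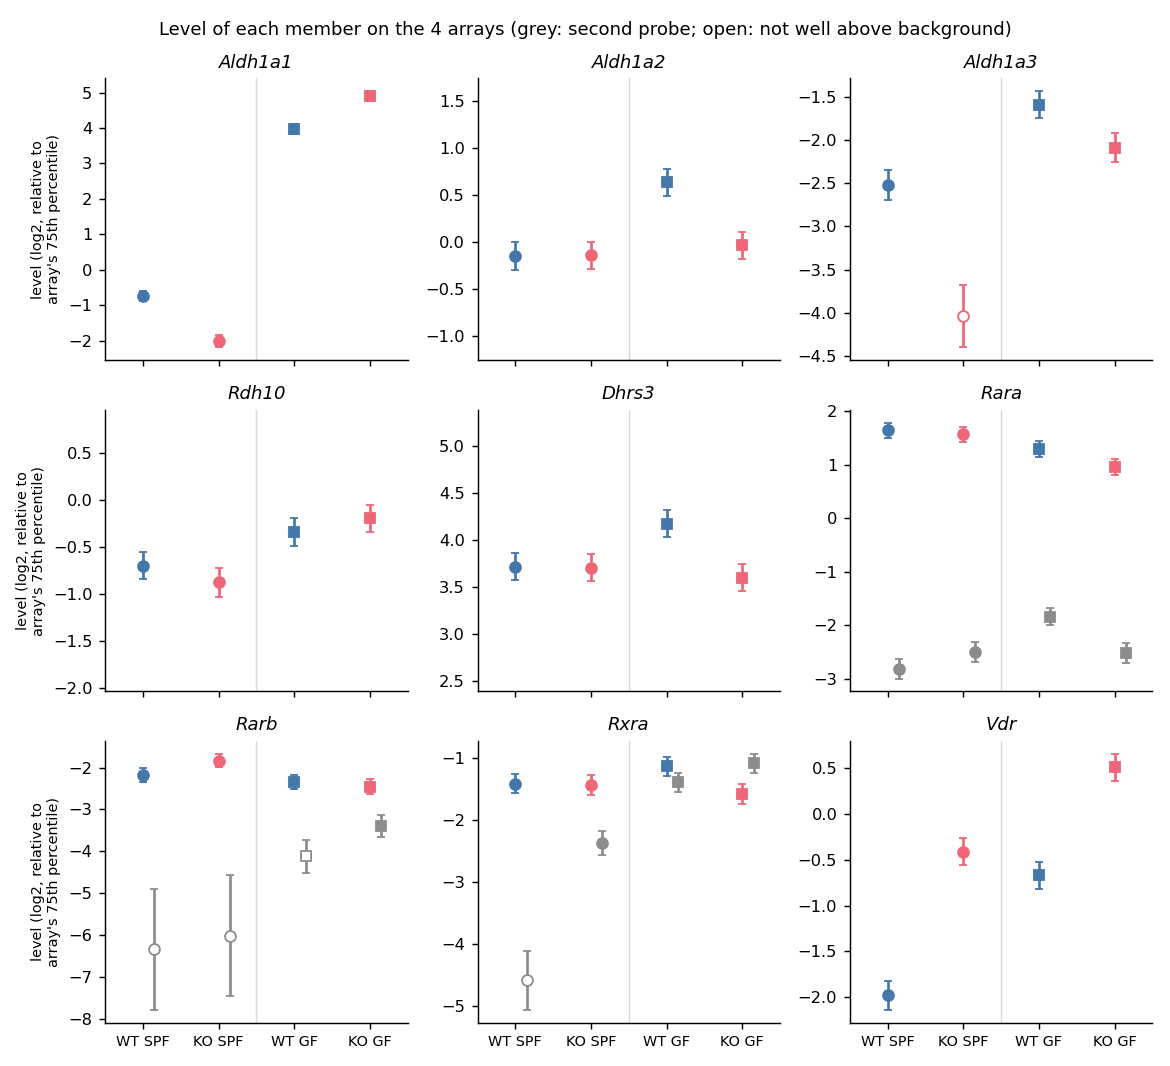
Level of each of the 9 genes on the 4 arrays, as log2 relative to the array's 75th percentile, with scales that differ between panels. Coloured points are the brightest probe, grey points a second probe, circles SPF and squares GF, bars are the scanner software's error for the spot, and open symbols are not well above background. Aldh1a1 runs from -2.02 to 4.89, Vdr is higher on each KO-labelled array than on the WT array of the same housing, and the second probes of Rara, Rarb and Rxra do not follow the first.

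Markers of the epithelium, whose cells also express Aldh1a1, differed between the same arrays. The summed signal of 15 epithelial markers, in units of the array's 75th percentile, was 4.99 on the WT SPF, 7.52 on the KO-labelled SPF, 399 on the WT GF and 575 on the KO-labelled GF array. Between housings all 15 differed by at least 2-fold toward GF in both genotypes, counting values under background as measured. Of all genes, 17.5% (WT) and 21.4% (KO-labelled) were at least 2-fold higher on the GF array. The median differences of the 15 were 5.84 (WT) and 5.23 (KO-labelled). By bounds 14 of 15 passed in WT cells (not Cdx2) and 15 in KO-labelled cells. On the SPF arrays, Cdh1, Cdx2 and Slc26a3 were not well above background on either array, nor Krt8 and Chga on the WT and Krt20 on the KO-labelled array, and on the GF arrays all 15 were. The order of levels of Aldh1a1 over the 4 arrays, with KO-labelled SPF lowest and KO-labelled GF highest, was shared by 4 of the 15: Car1, Fabp2, Muc2 and Vil1. Car1, the carbonic anhydrase of colonocytes, had levels of -1.20, -2.60, 6.28 and 7.39, and Muc2, the goblet cell mucin, -0.50, -1.31, 1.47 and 3.40. Under SPF housing the markers were split, with 5 of 12 tested lower on the KO-labelled array (those 4 and Krt20) and 7 higher. Past 2-fold, Car1 was lower and 4 were higher, where 6.49% and 5.74% of all genes were. Fibroblasts and smooth muscle are another possible source, and the summed signal of their 11 markers was 27.2, 16.9, 27.5 and 26.3 in the same order. All 11 were below the WT level on the KO-labelled SPF array, with a median difference of -0.73, and 3 (Col1a1, Col3a1 and Pdgfrb) had the order of Aldh1a1 over the 4 arrays. A lower KO-labelled SPF value was not limited to these cells. It was also found in 9 of 11 macrophage and monocyte, 6 of 7 endothelial, and 4 of 6 mast cell, neutrophil and eosinophil markers tested. The counts were 2 of 11 for dendritic cell, 0 of 5 for B and plasma cell and 0 of 2 for T and innate lymphoid cell markers. The part of these cells in the Aldh1a1 values was not tested, and in such bulk samples a change in the number of cells of a type cannot be told apart from a change in RNA per cell.

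**Figure D2:**
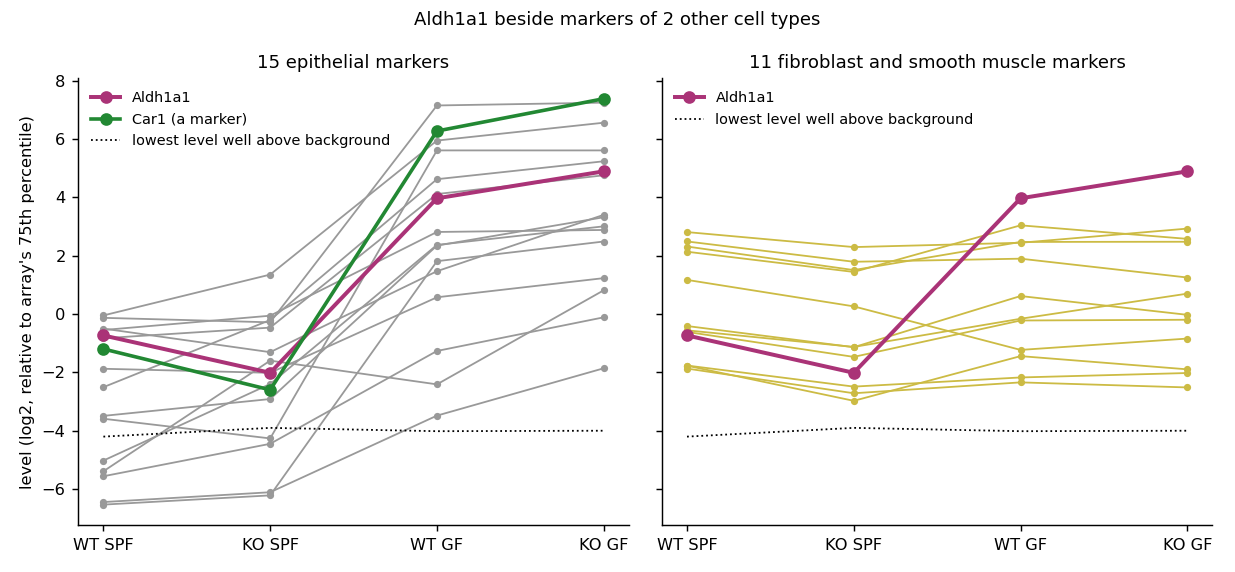
Levels of Aldh1a1 (purple) over the 4 arrays beside 15 epithelial markers (left, grey, with Car1 in green) and 11 fibroblast and smooth muscle markers (right, yellow), as log2 relative to the array's 75th percentile; each line joins the values of 1 gene, and the dotted line is the lowest level well above background. Aldh1a1 and 14 of the 15 epithelial markers (not Chga) lie higher on both GF than on both SPF arrays; Aldh1a1, 5 of 12 epithelial markers tested and all 11 fibroblast and smooth muscle markers are lower on the KO-labelled than on the WT SPF array.

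Aldh1a2, the retinaldehyde dehydrogenase by which gut dendritic cells are known to make retinoic acid, differed far less. Its single probe (NM_009022) gave signals of 155, 147, 308 and 209 on the WT SPF, KO SPF, WT GF and KO GF arrays, which are levels of -0.15, -0.14, 0.63 and -0.04. The WT GF array was the high one, and the other 3 lay closer together than the spot error of 0.21 in a difference. The genotype difference was 0.01 under SPF housing and its sign turned with quantile scaling and with the authors' deposited values. Under GF housing it was -0.67, or 1.59-fold lower on the KO-labelled array, where the median of all genes was -0.20 and that of genes in its quartile of brightness -0.30. With the deposited values it was -0.39. The housing difference was 0.79 in WT cells and 0.11 in KO-labelled cells. The genes with the most similar levels over the 4 arrays, after each was centred on its own mean, were Eefsec, Ppp1cc and Ddt, at root mean square distances of 0.01, 0.02 and 0.02. In all, 198 of 12883 genes above background on all 4 arrays lay within 0.1.

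Genes known to regulate Aldh1a2 in dendritic cells included the receptor chains of GM-CSF and of TGF-beta, Toll-like receptor 2 and the transcription factors Irf4 and Irf8. Under SPF housing 0 of 14 tested were at least 2-fold higher and 1 lower, where 5.74% and 6.49% of all genes were, with a median difference of 0.14. Under GF housing 0 of 14 were higher and 3 lower by measured values, where 8.84% and 7.70% of all genes were (medians -0.52 and -0.20): the prostaglandin receptor gene Ptger2, with levels of -1.45 and -2.46, Tlr2, with a difference of -1.05, and the cytokine gene Il4, which neither KO-labelled array measured above background. Il4 was at least 1.28-fold lower under GF housing, so that 2 of the 3 are shown to pass 2-fold, and it was also the lower gene under SPF housing, by at least 3.52-fold. Csf2rb, the common beta chain of the GM-CSF receptor, had levels of 4.19, 4.96, 3.70 and 2.74, which is a genotype difference of 0.76 under SPF and -0.96 under GF housing. Irf4 had levels of 0.77, 1.54, 1.98 and 1.24. The dendritic cell markers moved on the same pair, with 4 of 10 at least 2-fold lower on the KO-labelled GF array, 0 higher and a median of -0.76, and the macrophage markers had a median of -0.81. Their part in these differences was not tested.

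Aldh1a3, the third enzyme of the family, was dim. Its probe (NM_053080) read -2.52 on the WT SPF array, did not stand well above background on the KO-labelled SPF array, and read -1.59 on the WT GF and -2.09 on the KO-labelled GF array. The KO-labelled SPF array was thus the low one. Differences from that array are given as bounds, with its value set to the higher of the probe's own level and the lowest level well above background. The gene was at least 2.61-fold lower on the KO-labelled SPF than on the WT SPF array and at least 3.52-fold lower than on the KO-labelled GF array (measured differences of -1.52 and 1.95 toward GF). After normexp correction of the median signals these became -0.37 and 0.52. Under GF housing the genotype difference was -0.50, and in WT cells the housing difference was 0.93.

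Rdh10, which makes the retinaldehyde that the 3 dehydrogenases use, had levels of -0.70, -0.88, -0.34 and -0.20 on the WT SPF, KO SPF, WT GF and KO GF arrays (NM_133832). Both GF arrays were above both SPF arrays, and the genotype differences of -0.18 and 0.14 were within the spot error of 0.21. The housing difference was 0.36 in WT and 0.68 in KO-labelled cells, the latter 1.03 with the deposited values. Dhrs3, which removes retinaldehyde and is itself induced by retinoic acid, had levels of 3.71, 3.70, 4.17 and 3.60 (NM_011303). As for Aldh1a2, the WT GF array was the highest and both SPF arrays differed by 0.01. The genotype difference under GF housing was -0.58, and -0.19 with cyclic loess scaling. Its housing difference was 0.46 in WT cells, and in KO-labelled cells it was -0.11 and turned positive with quantile, cyclic loess and deposited scaling.

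Among the receptors for retinoic acid, Rara encodes RAR alpha. Its brighter probe (NM_001177302) read 1.65, 1.57, 1.29 and 0.96 on the WT SPF, KO SPF, WT GF and KO GF arrays, with the KO-labelled GF array lowest. The housing difference by this probe was -0.35 in WT and -0.62 in KO-labelled cells. A dimmer probe with the same accession read -2.81, -2.51, -1.84 and -2.53, which turns the housing difference in WT cells to 0.97, so the probes disagree on its direction. Rarb encodes RAR beta and is known as a direct retinoic acid target, and its promoter repeat is shown above. Its brighter probe (NM_011243) read -2.17, -1.83, -2.34 and -2.45, a range of 0.62 with the KO-labelled SPF array highest. Its genotype difference was 0.34 under SPF and -0.12 under GF housing, the latter within the spot error of 0.25. The second Rarb probe stood above background only on the KO-labelled GF array, at -3.40, where it was at least 1.42-fold above the KO-labelled SPF array.

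Rxra encodes RXR alpha, the partner of both RARs and of the vitamin D receptor. Its brighter probe by mean (NM_011305) read -1.42, -1.44, -1.14 and -1.59, and its genotype difference was -0.02 under SPF and -0.45 under GF housing. A second probe of the same accession did not stand above background on the WT SPF array and read -2.38, -1.40 and -1.09 on the KO SPF, WT GF and KO GF arrays. By that probe Rxra was higher by at least 3.55-fold on the KO-labelled than on the WT SPF array, at least 7.00-fold higher on the WT GF than on the WT SPF array, and 1.28 higher between housings in KO-labelled cells, none of which the first probe showed. The probes do not settle whether Rxra differed.

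Vdr, the receptor for the active form of vitamin D, was higher on the KO-labelled array under both housings. Its single probe (NM_009504) gave signals of 43.8 ± 4.88 (WT SPF), 122 ± 12.5 (KO-labelled SPF), 125 ± 12.8 (WT GF) and 305 ± 30.7 (KO-labelled GF), which are levels of -1.98, -0.41, -0.67 and 0.51. The WT SPF array was the lowest and the KO-labelled GF array the highest, with the KO-labelled SPF and WT GF arrays between them. The genotype difference was 1.57 under SPF housing, or 2.96-fold, and 1.18 under GF housing, or 2.26-fold. It was the 383rd highest of 14877 genes tested under SPF and the 1000th highest of 15697 under GF housing. In genes of its quartile of brightness, the share past 2-fold toward the KO-labelled array was 4.79% under SPF and 7.67% under GF housing. The housing difference was 1.31 in WT and 0.92 in KO-labelled cells. Normexp correction on the median signals lowered these 4 differences to 0.82, 0.91, 0.55 and 0.64, and none of the 5 alternatives for scaling, background or probes turned a sign. Epithelial cells express Vdr as well, and the epithelial markers had a median genotype difference of 0.43 under SPF and 0.66 under GF housing. Under SPF housing 4 of 12 tested were at least 2-fold higher and 1 lower, where 5.74% and 6.49% of all genes were. Under GF housing 5 of 15 were higher and 0 lower, where 8.84% and 7.70% of all genes were. The part of these markers in the Vdr values was not tested. The genes nearest to Vdr over the 4 arrays were B3galt5, S1pr3 and Fzd5, at root mean square distances of 0.14, 0.15 and 0.16, and 0 of 12883 genes lay within 0.1.

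The vitamin D list gave few measurable genes, and the part of the epithelial markers in their values was not tested. Of its 7 members 3 were tested under SPF housing, with 0 at least 2-fold different, and 4 under GF housing, with 2 higher and 0 lower on the KO-labelled array, where 8.84% and 7.70% of all genes were. These were S100g, which encodes the calcium-binding protein calbindin-D9k of the intestine, at 3.43, and Trpv6, an epithelial calcium channel gene, at 1.84, both well-known targets of the vitamin D receptor in enterocytes. S100g read -3.45 on the WT GF array, where the lowest level well above background was -4.02, and was below background on both SPF arrays. Trpv6 did not follow Vdr in the other pairs, with a genotype difference of 0.06 under SPF housing and a housing difference of -0.46 in WT cells and 1.32 in KO-labelled cells. Cyp24a1, a classic target of the receptor, and Cyp27b1, which activates vitamin D, were not well above background on any array.

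The question behind the genotype pairs is how dendritic cells that lack CD300a differ from WT cells under each housing, and behind the housing pairs how they differ without microbes. Under SPF housing, Vdr was at least 2-fold higher and Aldh1a1 and Aldh1a3 at least 2-fold lower on the KO-labelled array, which is 3 of 9 genes where 12.2% of 14877 genes tested were at least 2-fold different (5.74% higher and 6.49% lower). In the dimmest quartile of genes, which holds Aldh1a3, 31.9% were at least 2-fold different (19.3% lower). The median difference of the 9 was -0.02, and that of all genes -0.05. B and plasma cell markers differed on this pair too, with 5 of 5 tested past 2-fold toward the KO-labelled array by measured values (4 by bounds, without Ms4a1; median 1.97). Their summed signal, in units of the 75th percentile, was 20.4 and 95.7 on the WT and KO-labelled SPF arrays and 1.38 and 1.12 on the GF arrays. The part of these markers in the members' values was not tested. Under GF housing Vdr was the only member past 2-fold, 1 of 9 where 16.5% of 15697 were (8.84% higher and 7.70% lower), and the medians were -0.34 and -0.20. In WT cells Aldh1a1 and Vdr were at least 2-fold higher on the GF array, 2 of 9 where 26.9% of 15656 were past 2-fold (17.5% higher and 9.44% lower), with medians of 0.46 and 0.13. In KO-labelled cells Aldh1a1 and Aldh1a3 were, 2 of 9 where 37.1% of 15572 were (21.4% higher and 15.6% lower), with medians of 0.11 and 0.04. In the dimmest quartile of genes on this pair, which holds Aldh1a3, 56.5% were past 2-fold (43.2% higher). No member was at least 2-fold lower on a GF array. The counts of higher and lower genes behind these shares changed with the processing: 854 and 965 under SPF housing became 181 and 91 with normexp, 1387 and 1209 under GF housing became 2291 and 571 with the deposited values, and 3337 and 2436 between housings in KO-labelled cells became 4613 and 1501. The WT SPF and KO-labelled GF arrays, like the other 2, each enter a genotype and a housing comparison, so these 4 comparisons are not independent.

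**Figure D3:**
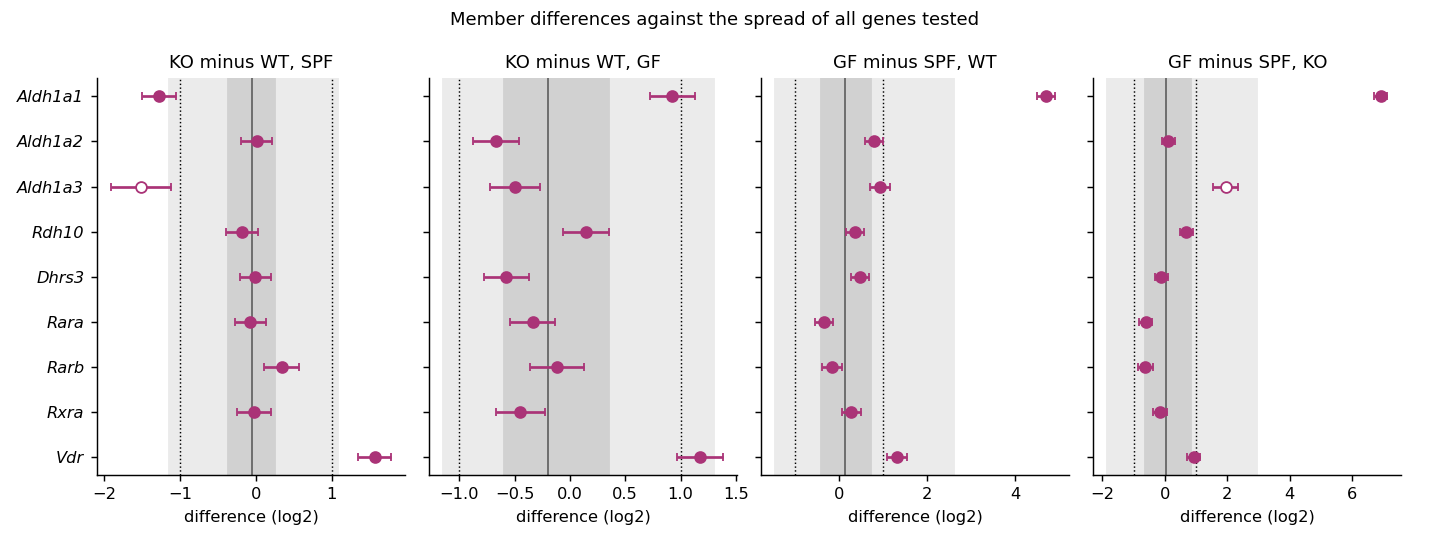
Differences in level (log2) of the 9 genes in the 4 comparisons; points are the brightest probe, bars the combined scanner error of both spots, and open points are not well above background on 1 array. Dark and light bands hold the middle 50% and 90% of all genes tested, the grey line is their median, and dotted lines mark 2-fold. Aldh1a1 lies outside the light band in 3 comparisons and Vdr in 1, under SPF housing, where Aldh1a3 is also outside it.

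A limma fit of all 4 arrays with genotype and housing as additive terms gives the only test across genes, on 15029 genes above background on at least 2 arrays. It has 1 residual degree of freedom, the genotype by housing interaction, so its errors do not measure the spread between mice of a group. For genotype it called 0 of 9 members at an adjusted p under 0.05, where it called 0.193% of all genes (0.106% higher and 0.0865% lower), and 2 members had an unadjusted p under 0.05, where 6.77% of genes did. These were Vdr, with a difference of 1.37 (SE 0.40, limma adjusted p 0.25) in the same direction in both housings, and Aldh1a3, with -1.01 (SE 0.42, limma adjusted p 0.64). Over the 8 settings tried, the adjusted p of Vdr ran from 0.041 with an intensity trend and robust prior to 0.85. For housing it called Aldh1a1 and Aldh1a3, 2 of 9 where 18.0% of genes were called (12.0% higher and 5.93% lower). Aldh1a1 differed by 5.81 (SE 0.49, limma adjusted p 5.5e-07, and 0.0059 at most over 8 settings) and Aldh1a3 by 1.44 (SE 0.42, limma adjusted p 0.027). Both Aldh1a3 differences rest on a value below background on the KO-labelled SPF array, which leaves the gene out of the fit limited to genes measured on all 4 arrays. Its housing call was lost at differences of 1.28 with quantile and cyclic loess scaling, 1.60 with the deposited values and 0.46 with normexp (limma adjusted p 0.065, 0.086, 0.086 and 0.22). Vdr, with 1.11 (SE 0.40, limma adjusted p 0.070), had an unadjusted p under 0.05, as did both called members, where 30.4% of genes did; it was called in the fit limited to genes measured on all 4 arrays and in that with the intensity trend. For the other members the limma adjusted p for housing was between 0.42 and 0.94.

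The rest of the pathway was read from lists of 86 further genes. The counts below are read against the shares of all genes at least 2-fold higher and lower. On the GF array these shares were 17.5% and 9.44% in WT and 21.4% and 15.6% in KO-labelled cells. On the KO-labelled array they were 5.74% and 6.49% under SPF and 8.84% and 7.70% under GF housing. The epithelial markers given above were higher on the GF arrays. Of 11 dendritic cell markers tested, 0 were at least 2-fold higher on the GF array in either genotype. In WT cells 2 of these were lower (median -0.18), and in KO-labelled cells 8 (median -1.32). Of 11 macrophage and monocyte markers, 3 were higher and 0 lower in WT cells (median -0.14). In KO-labelled cells 2 were higher and 2 lower (median -0.77). The part of all these markers in the lists was not tested. Of 26 other retinoid enzymes, 20 were tested between housings in WT cells, with 7 at least 2-fold higher by measured values (6 by bounds, without Rdh7) and 1 lower on the GF array (median 0.64), and 19 in KO-labelled cells, with 8 higher and 1 lower (median 0.66). Adh1, an alcohol dehydrogenase that oxidises retinol, had levels of -0.64, -0.15, 2.62 and 3.74 on the WT SPF, KO SPF, WT GF and KO GF arrays, and so followed the split of Aldh1a1 between housings. Cyp26b1, which degrades retinoic acid, had -2.91, -2.72, -1.06 and -0.81. The retinol dehydrogenase genes Rdh9 and Rdh16 and Lrat, which stores retinol as esters, were not well above background on the SPF arrays and were at least 5.34-fold, 2.25-fold and 3.84-fold higher on the WT GF array. Under GF housing 3 of 19 enzymes were past 2-fold toward the KO-labelled array and 0 the other way (median 0.27): Rdh9 by 1.52, Rdh16 by 1.31 and Adh1 by 1.12. Dgat1, which can also esterify retinol, went the other way in KO-labelled cells, from 4.36 under SPF to 1.94 under GF housing. Between genotypes under SPF housing, 0 of 16 enzymes were at least 2-fold higher and 1 lower (median 0.03). That gene was Cyp26a1, the other retinoic acid hydroxylase, named after its values were seen: only the WT SPF array measured it above background, at -1.26, and it was at least 6.24-fold lower on the KO-labelled SPF and 6.72-fold lower on the WT GF array, by its only probe.

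Of 11 retinoid binding and uptake genes, 4 of 8 tested were at least 2-fold higher on the GF array in WT cells and 1 lower, and 4 of 9 higher and 1 lower in KO-labelled cells (medians 1.33 and 0.99). Rbp2, the retinol-binding protein of enterocytes, was not well above background on the SPF arrays and was at least 12.3-fold higher on the WT GF and 16.9-fold higher on the KO-labelled GF array than on the SPF array of the same genotype. Fabp5, which can carry retinoic acid to another receptor, was the lower gene, at -1.03 and -1.02. Crabp2, which carries retinoic acid to the RARs, had levels of 1.11, 0.98, 1.73 and 2.17.

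Of 18 other receptors, partners and corepressors, 3 of 18 were at least 2-fold higher and 3 lower on the GF array in WT cells, and 3 higher and 4 lower in KO-labelled cells. Rxrb, the gene of RXR beta, had levels of 4.52, 4.45, 3.36 and 2.81 and housing differences of -1.16 and -1.63, and Ppara, the receptor for fatty acids and another RXR partner, had differences of 1.32 and 3.96. Under SPF housing 2 of 17 tested passed 2-fold toward the KO-labelled array and 0 the other way, where 5.74% and 6.49% of all genes did. They were the orphan receptor genes Nr4a3 (1.76) and Nr4a2 (1.30, but 0.61 by another probe). Among 13 retinoic acid target genes, 3 of 10 tested were at least 2-fold higher and 4 lower on the GF array in WT cells, and 4 of 9 higher and 3 lower in KO-labelled cells, so the list did not move one way. Tgm2, the transglutaminase induced by retinoic acid in myeloid cells, had levels of 5.66, 5.87, 3.79 and 2.81, with housing differences of -1.87 and -3.06 that a second probe shared at -1.64 and -2.63. Itgb7, the beta chain of the gut-homing integrin, had levels of 3.80, 3.89, 2.32 and 0.97, and Hoxa5 had housing differences of 1.62 and 1.21. Between genotypes the targets had medians of 0.14 under SPF and -0.10 under GF housing, with 0 higher and 1 lower at 2-fold in each. Of all genes 5.74% were higher and 6.49% lower under SPF housing, and 8.84% and 7.70% under GF housing.

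**Figure D4:**
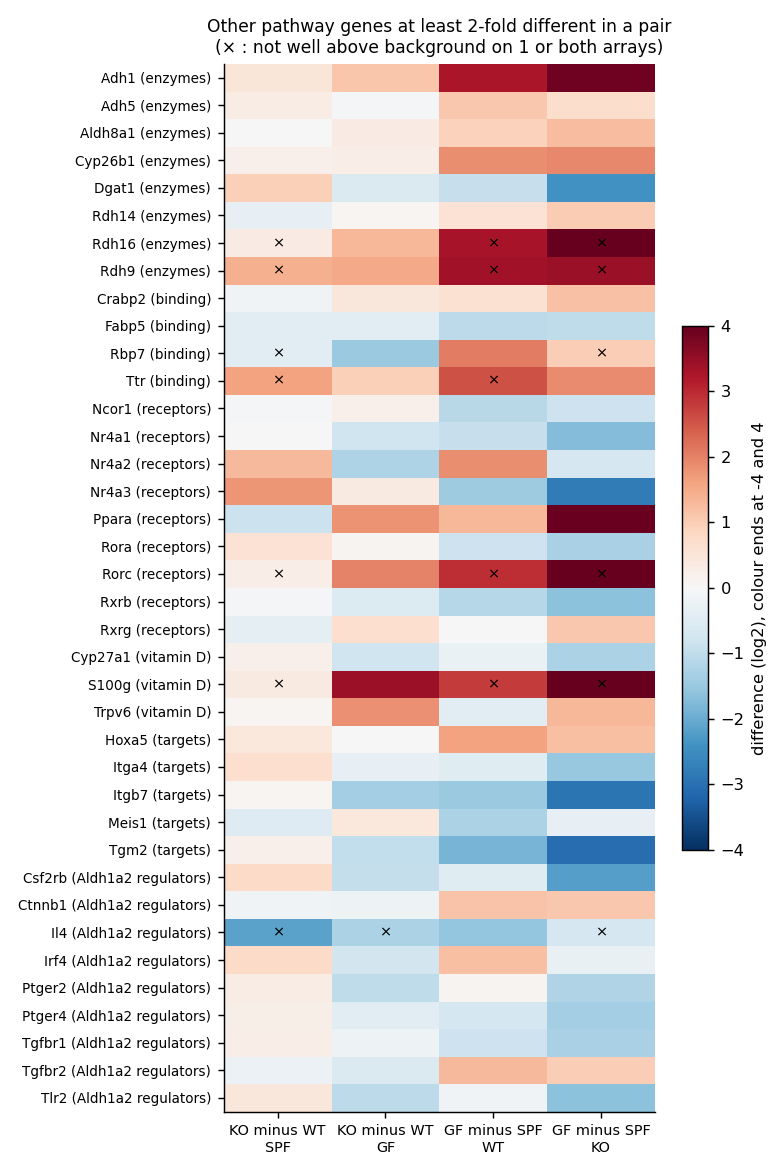
Differences in level (log2) of 38 other pathway genes that were above background on both arrays of a pair and at least 2-fold different in it; rows are genes with their list in brackets, columns the 4 comparisons, red higher and blue lower, with colours ending at -4 and 4, and a cross where a gene was not well above background on 1 or both arrays. Adh1 and Cyp26b1 are red in both housing columns, Tgm2, Itgb7 and Rxrb are blue in both.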

How the data were processed

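Single-colour Agilent arrays hybridised with Cy3-labelled amplified cDNA were analysed, 1 per group. The software was Feature Extraction 10.10.1.1 (protocol GE1_1010_Sep10, design build mm9) per the file headers, and the deposited scanner files give a background-subtracted processed signal intensity per spot, without scaling across arrays. The deposited series-wide table holds this intensity times a constant per array (8.30, 8.24, 7.08 and 7.96; column medians 237.2, 216.3, 235.7 and 331.4); it is linear and uncentred, and the rule behind the constants stays unknown. Control spots (3671) and outlier spots were left out, log2 values of these deposited intensities were set against each array's 75th percentile, and spots of a probe averaged. Accessions were matched without version to RefSeq symbols of GRCm38.p6, which named 27191 probes; the brightest probe by mean stood for a gene in counts. Promoter stretches are RefSeq's. A pair was tested where a gene was well above background on either array, and called at 2-fold. Limma 3.58.1 (R 4.3.3) used Benjamini-Hochberg adjustment over all genes fitted, and was tested on simulated data; figures used matplotlib 3.10.9. The precision is limited by the number of arrays. The members and lists were chosen with earlier results of these data known. All members are named. Of other pathway genes, the rule named those above background on both arrays of a pair and at least 2-fold different in it, at most 8 per list. Cyp26a1, Rbp2, Lrat, Rdh7, Irf8, Cyp24a1 and Cyp27b1 were named outside this rule, and 1 gene of the lists is counted but not reported by name here. Alternatives were quantile and cyclic loess scaling, the deposited table, normexp background correction with offset 50, only genes above background on all 4 arrays, the mean of a gene's probes, a 1.5-fold threshold and, for limma, an intensity trend with robust prior. The planned normexp on mean signals could not be run, as the files used here hold median signals; those were used instead, which was chosen after seeing the data.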

Additional observations from a re-analysis of the deposited data

Results flagged for a closer look

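The genotype difference of Aldh1a1 had opposite signs in the housings: its level was 1.28 lower on the KO-labelled array under SPF housing (a difference of -1.28) and 0.92 higher under GF housing. The difference between these differences was 2.21. With 1 array per group it was not tested. Other members whose measured genotype differences had opposite signs, such as Aldh1a2 (0.01 and -0.67) and Rarb (0.34 and -0.12), differed by less than 1 between the housings. The 0.01 of Aldh1a2 and the -0.12 of Rarb lay within the spot errors of 0.21 and 0.25. Both turned sign with the deposited values, so opposite signs are not shown for these genes.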

How the results depend on the processing

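No paired analysis was possible because each group has 1 array and the labels give no replicate numbers. Signs of members called at 2-fold did not turn under any of the 5 scaling, background and probe alternatives. Under SPF housing the number of members at least 2-fold different went from 3 to 0 with normexp and to 4 with the mean of probes (Rxra joining at 1.09). Under GF housing it went from 1 to 2 with quantile, cyclic loess and deposited scaling (Aldh1a1 joining Vdr), to 0 with normexp and to 3 at a 1.5-fold threshold. Between housings in WT cells it went from 2 to 1 with normexp, to 3 with the mean of probes (Rxra joining at 1.73) and to 4 at 1.5-fold. In KO-labelled cells it went from 2 to 4 with the deposited table and to 1 with normexp. It was also 1 when a gene had to be measured on all 4 arrays (which leaves out Aldh1a3), and 6 at 1.5-fold. The share of all genes past 1.5-fold was not computed, so the counts at that threshold cannot be read as results about the members. Members called by limma for genotype went from 0 to 1 (Vdr) with an intensity trend and robust prior; for housing they went from 2 to 1 with quantile, cyclic loess, deposited and normexp values. The limma genotype difference of Aldh1a1, -0.18, turned to 0.081 with quantile scaling and 0.059 with normexp, at limma adjusted p from 0.94 to 0.99 over all settings. Over all genes limma called 29 for genotype in the main fit and 0 with quantile, cyclic loess, deposited or normexp values. With the mean of probes it called 4, and 117 with the trend. For housing it called 2699 in the main fit. With quantile, cyclic loess, deposited and normexp values it called 2013, 1576, 1566 and 1510, with the mean of probes 2405 and with the trend 3428. Normexp adds an offset of 50 to every background-corrected median signal, which by construction shrinks differences of dim probes. The 75th percentile of the processed signal, which is another measure, was 163 to 215. The deposited table moved the median of all genes from -0.20 to 0.08 between genotypes under GF housing and from 0.04 to 0.39 between housings in KO-labelled cells. Dim probes, such as those of Aldh1a3 and the second Rarb and Rxra probes, limit what can be measured.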
